A study of Mus musculus with 62 samples.

Results

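The hippocampus of APP NL-G-F mice was compared between 12 and 6 months of age in long-RNA libraries, 3 mice at each age, which are 6 of the 62 libraries of the series. The members were taken from the labels: every long-RNA library of the APP genotype at these ages. APP NL-G-F (APP here) is a knock-in mouse whose own App gene carries a humanised amyloid beta sequence and the Swedish, Beyreuther/Iberian and Arctic mutations, so that expression stays under the App promoter in all cells that use the gene. The control mice (WT here) were C57BL/6J, which carry none of these alleles, and 3 WT libraries at 6 months and 3 at 12 months served for the same age step. Mice of 3 months, when plaque load is still very low, gave 3 APP and 2 WT libraries, which enter the fit that sets the spread and are used for a few levels below. The labels give a treatment for the cultured cells of the series and none for the mice. The hippocampi of both sides of a mouse were pooled, and the RNA of each mouse was then divided by size, into short and long fractions sequenced apart. The submitters describe 6 months as the age at which plaques and symptoms appear, and 12 months as the final stage. The labels name no sex. Xist, the RNA that coats the inactive X chromosome, stood between 103 and 137 scaled TPM in the 6 APP libraries and between 0.265 and 0.525 in the 6 WT libraries, so the age step within APP does not mix libraries with and without Xist, but every comparison of APP with WT does.

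Microglia are the resident phagocytes of the brain. Around amyloid plaques they are known to change state: genes for lipid handling, lysosomal breakdown and antigen display go up through the receptor Trem2 and its signalling partner Tyrobp, while part of the resting programme goes down. Astrocytes near plaques become reactive and make more of the filament protein Gfap. In whole tissue, a change in the number of cells of a type and a change in RNA per cell cannot be told apart, and this holds for all values below.

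Values are TPM (a length-corrected share of transcripts) scaled by the median ratio over genes, called scaled TPM, and a change is the difference of mean log2(scaled TPM + 1) between 12 and 6 months, which understates the change of low genes. Of 18566 genes tested with limma, 103 were called at a Benjamini-Hochberg adjusted p below 0.05 (0.555% of the genes). Of these, 97 were higher at 12 months (0.522%) and 6 were lower (0.0323%). The median change of all genes was -0.01. Of the 97 higher genes, 74 were protein-coding and 11 were processed pseudogenes. These calls rest on the spread shared by all 17 mouse long-RNA libraries in 1 fit. With the 2 groups fitted alone 1 gene was called, and it was not among the 103. With the APP libraries alone 0 were called (2117 at an unadjusted p below 0.05). Without the 12-month replicate 1 the count fell to 0 (1553 unadjusted). Without the 6-month replicates 1, 2 or 3 the counts were 38, 137 and 13, of which 29, 78 and 11 were among the 103. Without the 12-month replicates 2 or 3 the counts were 38 and 30, of which 36 and 25 were among the 103. With TPM as deposited 38 genes were called, 24 higher and 14 lower, of which 28 were among the 103. That scaling moved the median of all genes to -0.28. None of the 53 called genes named by the rule changed direction under any of these settings, but their calls held in 3 to 16 of the 18 or 19 alternatives run for each. Of the genes called higher, 10 averaged below 1 scaled TPM at 6 months, Ccl3, Tlr2, Commd5 and Rnu5g among them, so they passed the filter on low values through the 12-month group, and their calls support nothing about a list. Of the 103 genes, 24 share exon sequence with another annotated gene, Ctsd, Ctsl, Ctsb, Cd9, Cd74, Fcgr2b and Csf1r among them, and the library kit does not keep strand, so reads of such partners cannot be told apart.

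Several libraries stood apart. Replicate 2 at 6 months lay between the other 6-month libraries and the 12-month libraries in Cst7, Tyrobp, C1qa and Gfap, given below, and it held little choroid plexus RNA. Replicate 1 at 6 months was high in thalamic markers, with 164.1 summed scaled TPM over 8 genes against 47.7 and 48.9 in the other 6-month libraries. Replicate 3 at 6 months was high in pituitary hormone RNA, with 101.4 against 10.2 and 3.43, and had the highest protein-coding share of TPM, 43.2% against 30.0% to 35.9% in the other APP libraries of these ages. The 12-month replicate 1 held 54.5 of pituitary hormone RNA against 16.6 and 4.62. Among the 3-month APP libraries, replicate 1 had 603.2 for thalamic markers against 207.6 and 74.3, and 3301 for choroid plexus against 917 and 860. Relative depth, read as coverage over FPKM, was similar, from 1.68 to 2.02 over the 6 libraries. The neuronal markers were at like levels at both ages, 2391 to 2665 summed scaled TPM at 6 months and 2384 to 2576 at 12 months over 13 genes, with 0 called. Of the hippocampal markers, all 12 markers of the pyramidal fields and all 10 of the dentate gyrus passed the filter, with 0 called. The pyramidal sums were 399.6 to 463.1 over the 6 libraries. The dentate sums did not overlap, with 231.7, 208.9 and 231.0 at 6 months and 177.5, 201.8 and 198.8 at 12 months. The dentate median change was -0.21 (9 of 10 below 0), against 0.07 in WT. Over all 18566 genes 9580 changes were below 0.

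Of the 24 tested genes of plaque-associated microglia, 11 were called higher and 0 lower, with a median change of 1.39, and all 24 changes were above 0. Over all 18566 genes, 0.522% were called higher and 8986 changes were above 0, and these shares also stand beside the list counts below. The 11 include Ccl3, which passed the filter on low values through the 12-month group, so its call supports nothing about the list. Without the 12-month replicate 1, which ends every call, the median was 1.32. Without the 6-month replicates 1, 2 or 3 it was 1.29, 1.77 and 1.07, with 2, 15 and 2 called, and without the 12-month replicates 2 or 3 it was 1.49 and 1.37, with 7 and 3 called. In WT the median of the same genes between these ages was 0.08, with 0 called. The list was drawn up with results on these samples known, so its direction is not independent evidence.

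Cst7 encodes cystatin F, an inhibitor of lysosomal cathepsins, and lies on chromosome 2 (150570415 to 150578944, GRCm38). Its level was 0.657, 8.85 and 0 scaled TPM in the 6-month replicates 1, 2 and 3, and 36.2, 25.5 and 32.5 at 12 months. The groups did not overlap, and the 6-month replicate 2 was the one high library of its age. The change was 3.66 ± 0.58 (SE; limma, adjusted p = 0.0128), while the 6 WT libraries ran from 0 to 0.899. The call held in 12 of 19 alternatives.

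Tyrobp, the adaptor through which Trem2 signals, stood at 8.43, 24.4 and 7.65 at 6 months and at 58.8, 35.7 and 40.0 at 12 months (change 1.81 ± 0.32, limma adjusted p = 0.0202). Trem2 itself, the lipid-sensing receptor, had 4.26, 16.6 and 2.00 at 6 months and 21.2, 13.2 and 17.1 at 12 months. Its groups overlapped through the 6-month replicate 2, and the change of 1.45 ± 0.45 did not pass (limma adjusted p = 0.208); without that replicate Trem2 was called. Apoe, a lipid carrier made by astrocytes and by activated microglia, had 327, 267 and 149 at 6 months and 568, 551 and 567 at 12 months, and it too missed the threshold (change 1.25 ± 0.33, limma adjusted p = 0.118).

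Other called members cover secretion, adhesion and lipid-laden states. Lyz2, a lysozyme, was at 3.44, 15.6 and 3.94 and then at 28.9, 30.2 and 28.4, a rise of 2.08 ± 0.35 (limma adjusted p = 0.0174). Gpnmb, a membrane glycoprotein of lipid-filled phagocytes, went from 1.51, 3.32 and 2.00 to 7.79, 7.54 and 14.2. Itgax, the integrin CD11c, went from 0, 4.75 and 0.0556 to 8.85, 6.92 and 7.29, and its call held in 5 of 18 alternatives. Ccl3 and Ccl6 are chemokines that draw immune cells, and Ccl6 rose by 1.94 ± 0.33 (limma adjusted p = 0.0174). The tetraspanin Cd9 had little spread, with 26.3, 28.6 and 21.7 at 6 months and 59.8, 56.6 and 51.5 at 12 months, so a smaller change of 1.11 ± 0.15 gave one of the lowest adjusted p-values (limma, 0.00858). The plot of levels by library shows these patterns.

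**Figure D1:**
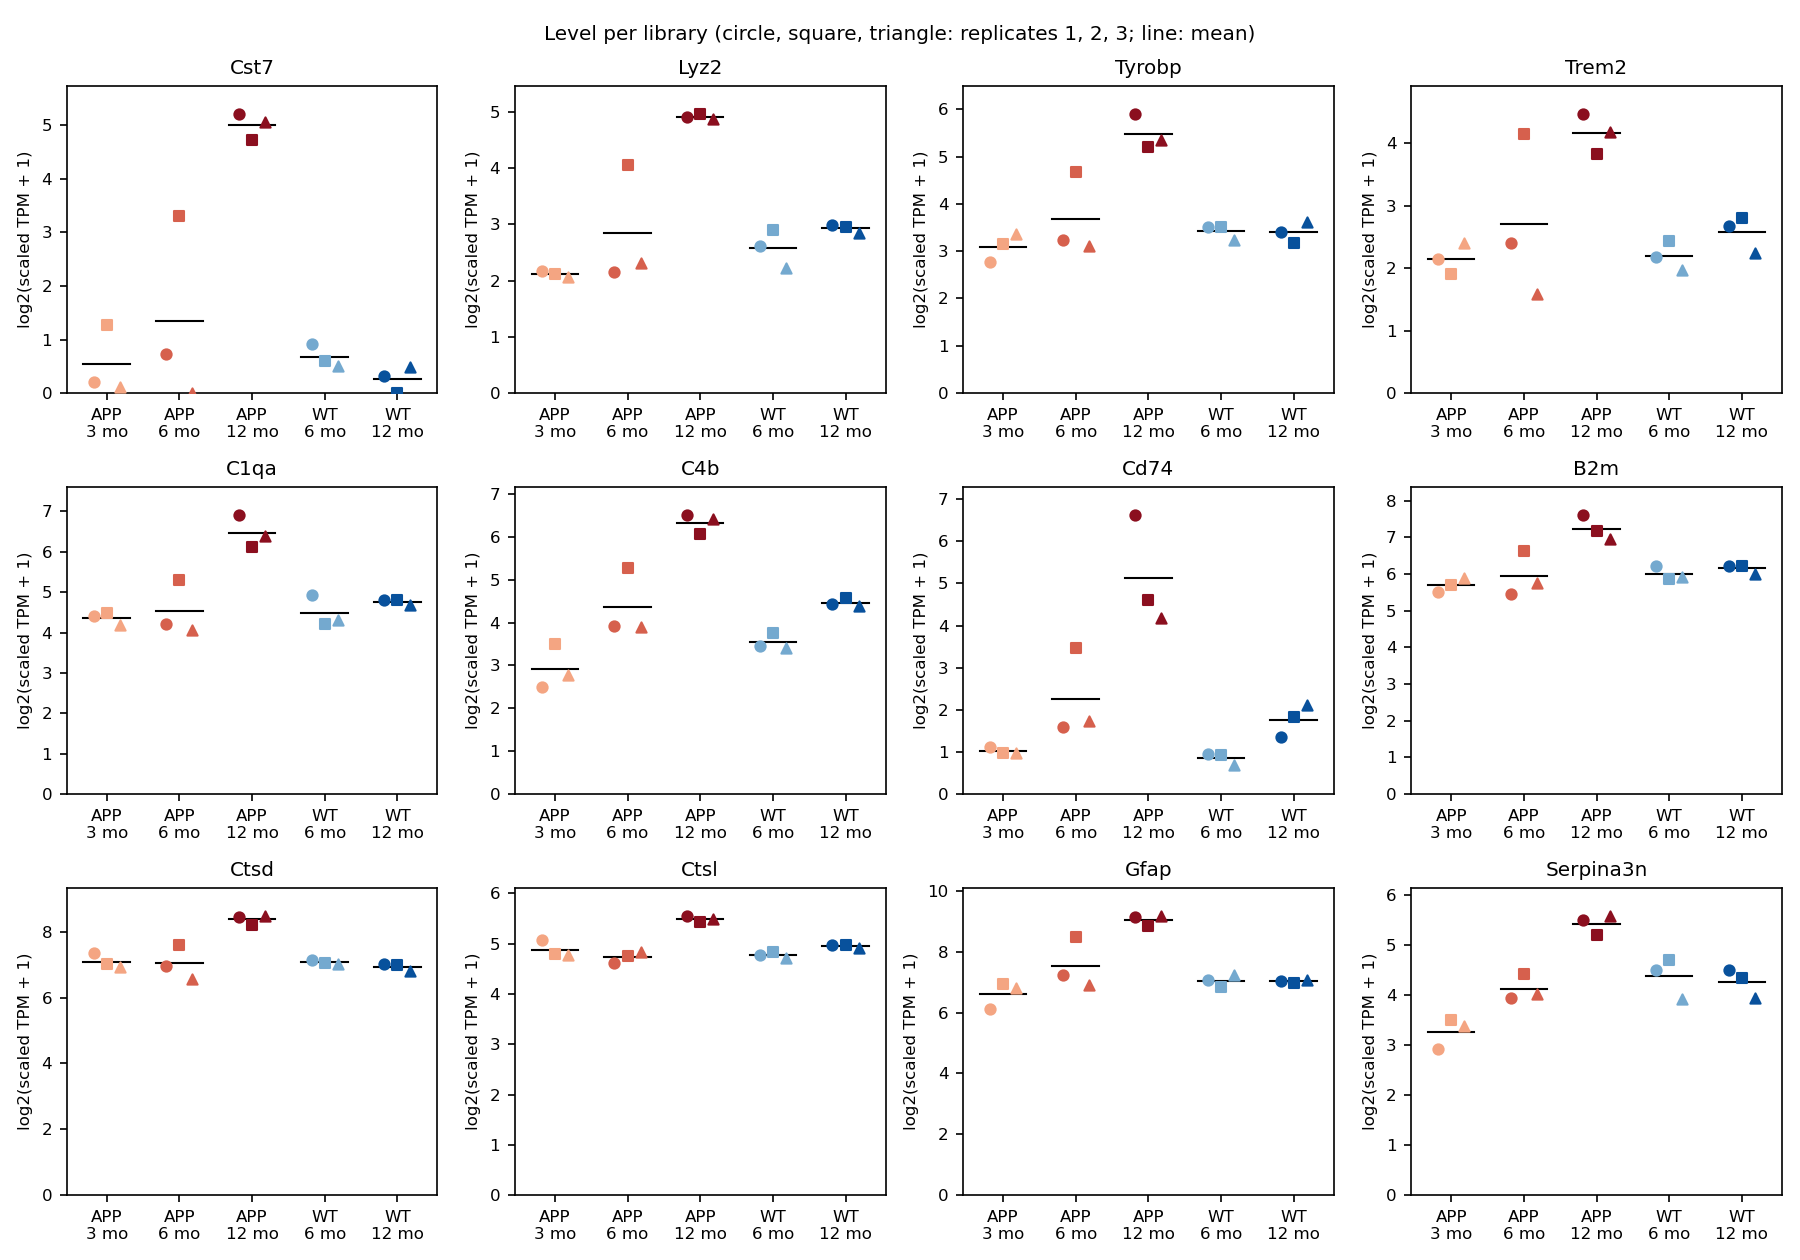
Level of 12 genes in each library, as log2(scaled TPM + 1), by genotype and age in months (mo); points are libraries and lines are means. In APP the 12-month libraries lie highest for 11 of the genes, Trem2 overlaps with the 6-month replicate 2 (square), and Cd74 is highest in the 12-month replicate 1 (circle).

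Of 16 tested markers of resting microglia, 4 were called higher and 0 lower, with a median change of 0.60 and 2 changes below 0. The count was 0 with TPM as deposited and 1 with protein-coding scaling, a pseudocount of 0.1, no filter or the replicate block, and it was 0 to 8 with 1 library left out. Csf1r, the growth factor receptor that microglia need to survive, was at 18.1, 29.0 and 17.1 at 6 months and at 36.2, 33.3 and 38.1 at 12 months (change 0.76 ± 0.16, limma adjusted p = 0.0436). Fcrls and Gpr34 were also called, with changes of 1.14 and 0.95. The calls of Csf1r, Fcrls and Gpr34 held in 5 of 19 alternatives each. P2ry12, a purine receptor of resting microglia, had 14.9, 20.5 and 16.4 and then 19.7, 22.4 and 18, with overlapping groups (change 0.21 ± 0.17, limma adjusted p = 0.705). Of the markers of macrophages at the brain's borders, 2 of 7 were abundant enough to test, and their summed level was 2.00 to 3.15 at 6 months and 1.36 to 4.72 at 12 months; none of 6 neutrophil markers and 1 of 11 lymphocyte markers passed the filter.

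The complement genes called higher were the 3 chains of C1q and C4b, while all 13 tested changes were above 0. C1q starts the classical pathway and tags synapses and debris for phagocytosis, and C4b is cleaved downstream of it. Of 13 tested complement genes, 4 were called higher and 0 lower (median 0.92), and 0 to 6 were called higher with 1 library left out. C1qa was at 17.7, 38.5 and 15.6 at 6 months and at 119.7, 68.9 and 82.9 at 12 months (change 1.95 ± 0.31, limma adjusted p = 0.0127). C1qb rose by 1.62 and C1qc by 1.72, with the 6-month replicate 2 again the highest of its age. C4b had 14.1, 37.9 and 14.0 at 6 months and 90.3, 65.6 and 84.5 at 12 months (change 1.96 ± 0.31, limma adjusted p = 0.0127). In WT C4b went from 9.95, 12.5 and 9.56 to 20.6, 22.7 and 19.9, with groups that did not overlap but no call (change 0.93), and the difference between the genotypes of 1.04 ± 0.43 did not pass (limma adjusted p = 0.437).

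The promoters of Cst7, C1qb and Ccl6 are shown because a short motif lies in each; they were taken from called genes with a match before the start and outside the annotated gene. The 250 bases before the RefSeq start (GRCm38.p6) are given 5′ to 3′ on the gene's strand, with capitals for AGGAAGT or its reverse complement ACTTCCT, a core bound by ETS family factors such as the myeloid factor PU.1.
Cst7: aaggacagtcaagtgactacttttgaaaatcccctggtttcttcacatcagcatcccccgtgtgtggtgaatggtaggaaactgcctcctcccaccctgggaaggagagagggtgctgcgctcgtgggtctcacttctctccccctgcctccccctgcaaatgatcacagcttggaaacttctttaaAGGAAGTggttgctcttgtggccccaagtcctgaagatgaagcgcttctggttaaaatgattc
C1qb: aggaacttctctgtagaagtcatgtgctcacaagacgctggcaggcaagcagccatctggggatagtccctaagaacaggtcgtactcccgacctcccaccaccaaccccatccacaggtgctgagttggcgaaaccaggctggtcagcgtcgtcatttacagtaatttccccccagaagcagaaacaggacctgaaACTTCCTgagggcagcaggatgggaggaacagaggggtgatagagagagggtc
Ccl6: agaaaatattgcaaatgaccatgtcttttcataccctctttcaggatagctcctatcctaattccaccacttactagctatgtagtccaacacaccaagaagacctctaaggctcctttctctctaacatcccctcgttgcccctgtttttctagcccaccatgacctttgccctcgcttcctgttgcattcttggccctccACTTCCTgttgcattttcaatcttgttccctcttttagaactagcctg
The windows lie at chr2:150570165-150570414 (plus strand), chr4:136886201-136886450 (minus strand) and chr11:83593088-83593337 (minus strand), and outside the annotated genes. The first base of the match is 63, 53 and 48 bases before the start. In windows from 250 bases before to 50 after a start, on both strands, the motif was in 16 of the 56 called higher genes found in the table (28.6%) and in 10.7% of all 27025 genes there. It was singled out after 9 motifs had been searched and their matches seen, so the share is a description with no test. Of the other 8, the E-box CACGTG was in 3 of the 56 (5.36%, against 8.09% of all) and ATTGG, the CCAAT box, in 21 (37.5%, against 41.1%), and AGGAAGT also lies within the longer GAGGAAGT, found in 4 (7.14%, against 3.69%). The remaining 5 were GAGGAA (37.5% against 31.3%), TGACTCA (5.36% against 5.95%), TATAAA (21.4% against 15.7%), GTCACGTG (3.57% against 2.55%) and TTTCCAG (17.9% against 8.89%).

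Some receptors that sense debris and antibodies rose. Of 13 tested Fc receptor, Toll-like receptor and related genes, 4 were called higher and 0 lower (median 0.53): Cd14 (change 1.45), Fcgr2b (1.35), Fcer1g (1.28) and Tlr2 (1.23). Tlr2 is one of the genes that passed the filter through the 12-month group, and Fcgr3 did not pass the test (limma adjusted p = 0.0948). With 1 library left out, 0 to 5 were called. Fcer1g, the signalling chain of activating Fc receptors, was at 6.29, 9.85 and 6.45 and then at 19.3, 22.9 and 16.4.

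MHC class II genes, which display peptides from engulfed material, had the largest median change of the lists, 2.07, with 2 of 7 called, and 1 library held the highest levels by far. Cd74, the chaperone of class II molecules, was at 2.01, 10.1 and 2.33 at 6 months and at 97.9, 23.3 and 17.3 at 12 months (change 2.87 ± 0.53, limma adjusted p = 0.0299). H2-Aa was at 0.806, 3.48 and 1.29 and then at 38.4, 7.44 and 7.11 (change 2.39 ± 0.49, limma adjusted p = 0.043), and its call held in 5 of 19 alternatives. In both genes the 12-month replicate 1 was at least 4 times the other 2 libraries of its age, and without it the median of the list was 1.45 with 0 called. Of 8 MHC class I genes tested, 3 were called higher (H2-D1, H2-K1 and B2m) and the median was 1.21. B2m, the shared light chain of class I, had 43.1, 97.8 and 52.7 at 6 months and 195, 143 and 122 at 12 months. Of 10 interferon-response genes, Bst2 and Oasl2 were called higher (median 0.83). With TPM as deposited 0 genes of these 3 lists were called.

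Lysosomal genes held the most calls of any list: 12 of 20 were higher and 0 lower, with a median of 0.68 against 0.02 in WT. With TPM as deposited 3 were called, and with 1 library left out 0 to 14. Ctsd, an aspartic protease of the lysosome, was at 125, 193 and 94.6 at 6 months and at 351, 297 and 357 at 12 months (change 1.34 ± 0.19, limma adjusted p = 0.00937). Ctss, a cysteine protease of phagocytes that trims the class II chaperone, was at 30.7, 69.3 and 29.2 and then at 141, 108 and 109 (change 1.56 ± 0.23). Ctsl and Ctsb, cysteine proteases that neurons and astrocytes also make, rose less, by 0.75 ± 0.10 and 0.54 ± 0.08, and in neither did the 6-month replicate 2 stand out: Ctsl had 23.4, 26.2 and 27.6 against 46.0, 41.9 and 43.9. Cst3, the abundant secreted cathepsin inhibitor, did not pass (change 0.51 ± 0.18, limma adjusted p = 0.278).

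Of 13 tested genes of reactive astrocytes, 4 were called higher and 0 lower (median 0.68): Gfap, Serpina3n, Ggta1 and Slc14a1. With TPM as deposited 1 was called, and with 1 library left out 0 to 6. Gfap was at 149, 355 and 119 at 6 months and at 569, 459 and 580.1 at 12 months (change 1.52 ± 0.30, limma adjusted p = 0.0411), and its call held in 5 of 19 alternatives. Serpina3n, a secreted protease inhibitor, was at 14.3, 20.4 and 15.2 and then at 44.1, 35.6 and 46.9, without overlap (change 1.3 ± 0.21, limma adjusted p = 0.0158). Vim, another filament protein, had separate groups but missed the threshold (change 0.69, limma adjusted p = 0.0918). Of 14 genes of resting astrocytes, 0 were called, and their median was -0.06.

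**Figure D2:**
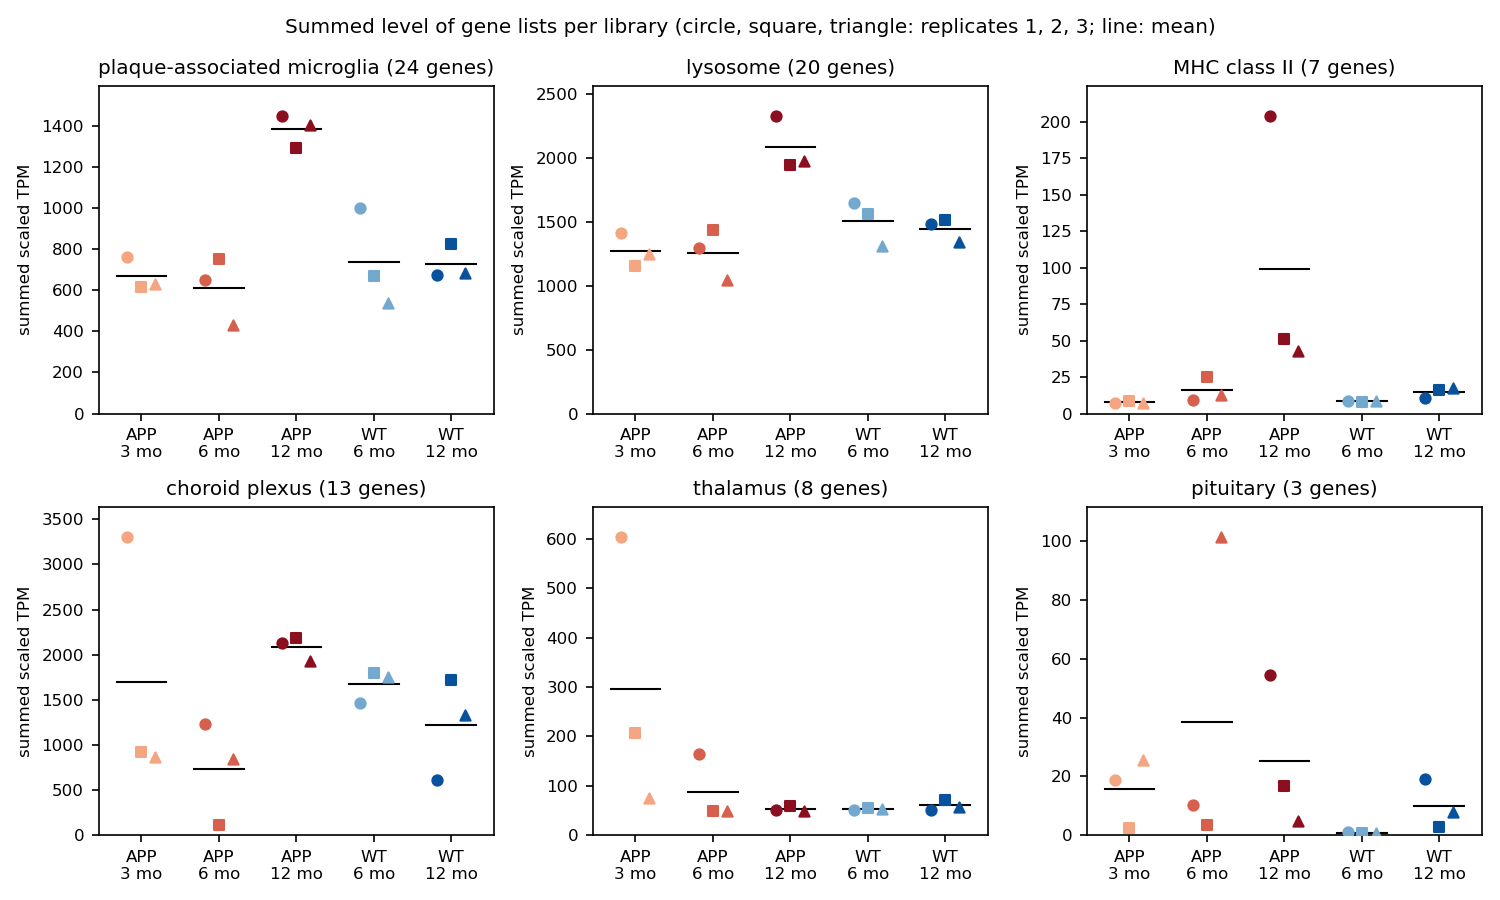
Summed scaled TPM of the tested members of 6 gene lists in each library, by genotype and age in months; points are libraries and lines are means. The 3 APP libraries at 12 months lie above those at 6 months for microglia, lysosome, MHC class II and choroid plexus, and single libraries stand out for thalamus and pituitary.

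A few small structural RNAs were called higher, with the 6-month libraries the low ones. Rny1, the Y1 RNA that binds the Ro protein, was at 27.5, 17.1 and 5.14 at 6 months and at 174, 178 and 126 at 12 months (change 3.43 ± 0.48, limma adjusted p = 0.00858). The APP libraries at 3 months held 57.5, 68.3 and 72.8, and the WT libraries at 6 and 12 months 124 to 449. Rny1 is 112 nucleotides long and was read here in the long fraction. The part of the division by size in the levels of Rny1 and the other small RNAs was not tested. Rn7sk, which holds the elongation factor P-TEFb inactive, was at 3555, 2934 and 1359.5 and then at 11991, 7178 and 7352 (change 1.83 ± 0.32, limma adjusted p = 0.0202), with 5232 to 7465 in the 3-month APP libraries and 7139.9 to 14371 in the WT libraries at 6 and 12 months. Rnu5g, a U5 spliceosomal RNA, averaged 0.951 at 6 months and 7.04 at 12 months, and its call held in 3 of 18 alternatives. Rny1 and Rnu5g are in no list and were named for the size of their change. Of the 14 members of the structural RNA list, Rn7sk alone was called higher and 0 were lower; 4 changes were below 0, with a median of 0.67 in APP and -0.18 in WT.

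Changes also went with transcript length. Over protein-coding genes in APP the median change was 0.24 where the longest transcript was below 500 nucleotides (67 genes), 0.35 from 500 to under 1000, 0.15 from there to under 2000, 0.02 from there to under 4000 and -0.06 at 4000 or more. In WT the same bins went the other way, from -0.13 and -0.12 in the shortest bins to 0.02 in the longest. With the median of each length bin set to 0 in every library, an alternative chosen after seeing the data, 72 of the 103 genes were called, and the medians of the plaque-associated microglia and lysosome lists were 1.36 and 0.67. Ribosomal protein genes, which are short, had a median change of 0.39 in APP and -0.20 in WT, with 1 of 20 called, and 0.28 in APP after that step.

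**Figure D3:**
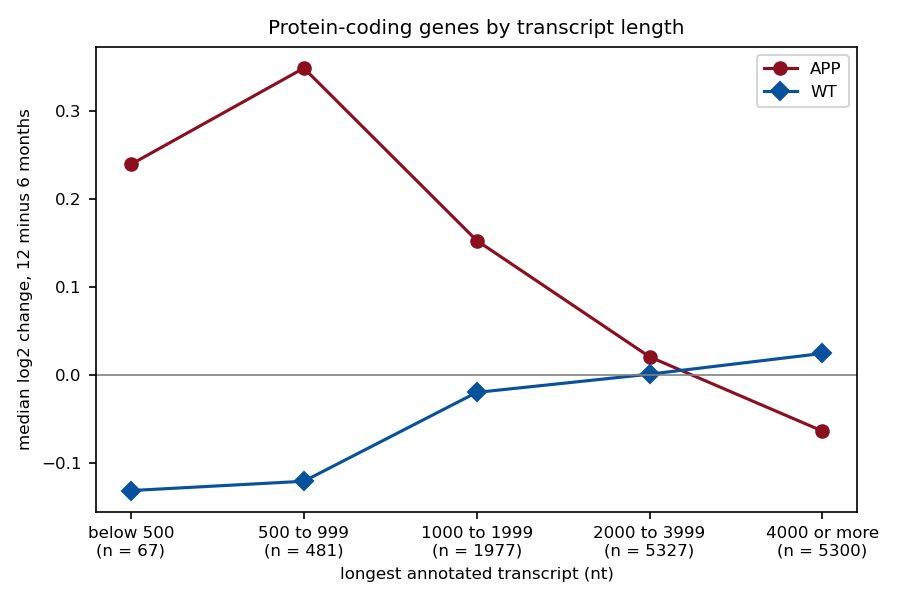
Median log2 change from 6 to 12 months of protein-coding genes by the length of the longest annotated transcript in nucleotides (nt), in APP and WT, with the number of genes per bin. Short transcripts lie above 0 in APP and below 0 in WT, and the lines cross near 0 in the 2 longest bins.

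The genes called lower were few. Utp14b was at 16.5, 17.7 and 19.3 at 6 months and at 7.58, 9.04 and 10.5 at 12 months (change -0.91 ± 0.15, limma adjusted p = 0.0174), but its exons overlap those of Acsl3 on the same strand. Zmym1 fell by 0.82 and overlaps Gm12940, and Cplane1, a ciliary planar polarity gene, went from 24.4, 27.7 and 23.4 to 17.9, 15.3 and 18.4 (change -0.52 ± 0.10, limma adjusted p = 0.0411), a call that held in 4 of 19 alternatives. The other 3, named after their values were seen, were the predicted genes Gm24210, Gm26899 and Gm36989. In Utp14b, Zmym1 and Cplane1 the mean of the 3-month APP libraries was nearer to the 12-month than to the 6-month mean.

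Neuronal and stress lists held no called gene. The medians were 0.01 for neuronal, 0.01 for synaptic vesicle, -0.12 for glutamate receptor (19 of 20 changes below 0), -0.29 for immediate-early and -0.04 for heat shock genes. In WT they were 0.11, 0.13, 0.08, -0.33 and -0.10. The glucocorticoid list had a median of -0.52 in APP and 0.17 in WT, with 0 of 9 called. With length bins centred the glutamate receptor median was -0.06, and over all 18566 genes 9580 changes were below 0. Snap25, a synaptic fusion protein, was at 677, 702 and 818 and then at 729.8, 742 and 729. Arc, an activity-induced synaptic gene, was at 34.8, 52.1 and 42.7 and then at 29.1, 24.5 and 30.9. The groups were separate, but the change of -0.59 ± 0.50 did not pass (limma adjusted p = 0.719). Of all genes, 9.2% had separate groups in that direction, as did 8 of 16 immediate-early, 6 of 20 glutamate receptor and 4 of 16 heat shock genes. The counts were 5 of 9 for glucocorticoid, 2 of 18 for synaptic vesicle and 0 of 13 for neuronal genes. Hsf1, the heat shock regulator targeted in the cultured cells of the series, was at 10.7, 14.1 and 13.2 and then at 11.7, 13.6 and 11.9 (change -0.03 ± 0.15). App was at 242, 206 and 242 and then at 415, 420.5 and 220.2, with replicate 3 at 12 months within the 6-month range (change 0.56 ± 0.20, limma adjusted p = 0.297); without that replicate it was called. Myelin genes (median 0.25, 16 of 16 above 0) and nuclear oxidative phosphorylation genes (0.24, 20 of 20 above 0) had 0 called. With TPM as deposited, which moved the median of all genes to -0.28, their medians were -0.06 and -0.08. With length bins centred they were 0.265 and 0.18, and over all 18566 genes 8986 changes were above 0.

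Choroid plexus genes differed in every member without a call. All 13 had separate groups, higher at 12 months, where 10.6% of all genes did, with a median of 1.37 and a lowest limma adjusted p of 0.236. Ttr, the thyroid hormone carrier made by the choroid plexus, was at 849.6, 27.2 and 524 at 6 months and at 1556, 1558 and 1339.7 at 12 months. The 6-month replicate 2 was far below all others, and without it the median was 0.76. The part of these markers in the other results was not tested.

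**Figure D4:**
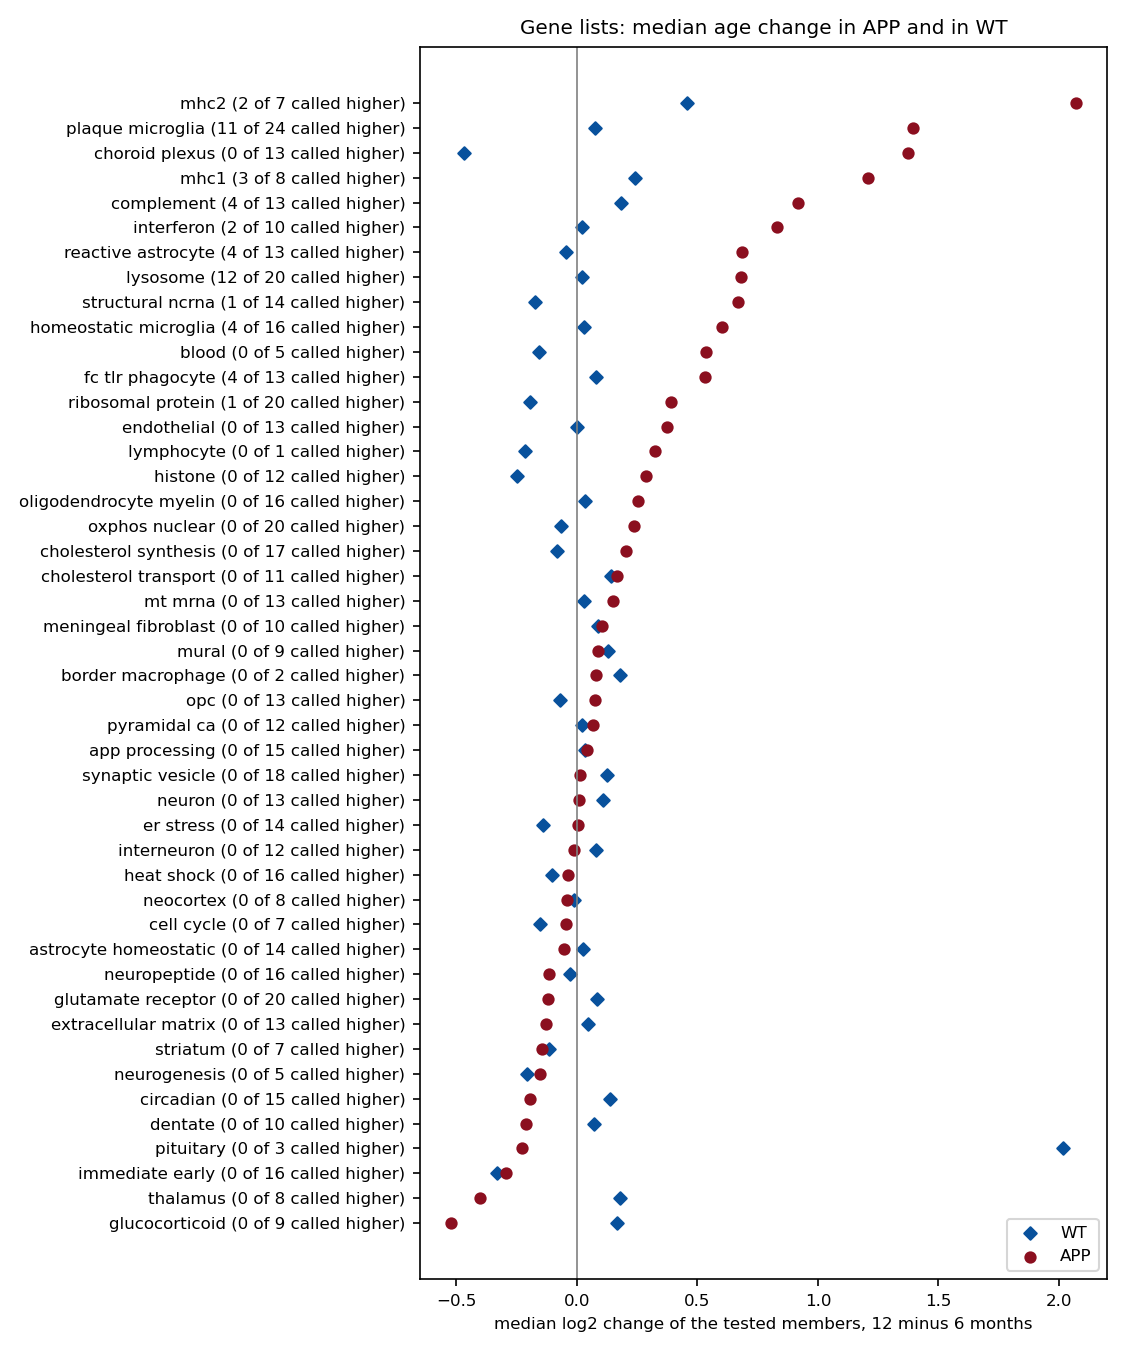
Median log2 change from 6 to 12 months of the tested members of each gene list, in APP (circles) and WT (diamonds), with the count called higher in APP beside each name. MHC class II, plaque-associated microglia and choroid plexus have the largest APP medians, 2.07, 1.39 and 1.37.

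In WT the same age step gave 0 called genes with limma (0.0% of 18566; 1254, or 6.75%, at an unadjusted p below 0.05). All 97 genes called higher in APP had a larger change in APP than in WT. Of the 103, 101 differed between the genotypes at an unadjusted limma p below 0.05, against 1875 of all genes (10.1%). The APP change that chose these genes is part of the difference, so the choice favours both counts. After adjustment the difference of the age changes passed for 4 genes (0.0215%), of which 3 are among the 103. None of the 4 is a microglial gene: Rps27 (1.90 ± 0.24), the pseudogenes Gm11878 (1.04 ± 0.14) and Gm16418 (1.71 ± 0.25), and the snoRNA Gm24616 (1.63 ± 0.22). For Cst7 the difference was 4.07 ± 0.82 (limma adjusted p = 0.133) and for Cd9 1.29 ± 0.22 (0.0749). No microglial, complement, lysosomal or astrocyte gene can therefore be called particular to APP ageing by this test, and the difference also sets libraries with Xist against libraries without it. Without the 6-month replicates 1, 2 or 3 of APP the count of differences was 10, 50 and 0, and without the 12-month replicates it was 1, 0 and 2. Without the WT replicates it was 3, 0 and 5 at 6 months and 6, 2 and 0 at 12 months, and with length bins centred it was 0.

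**Figure D5:**
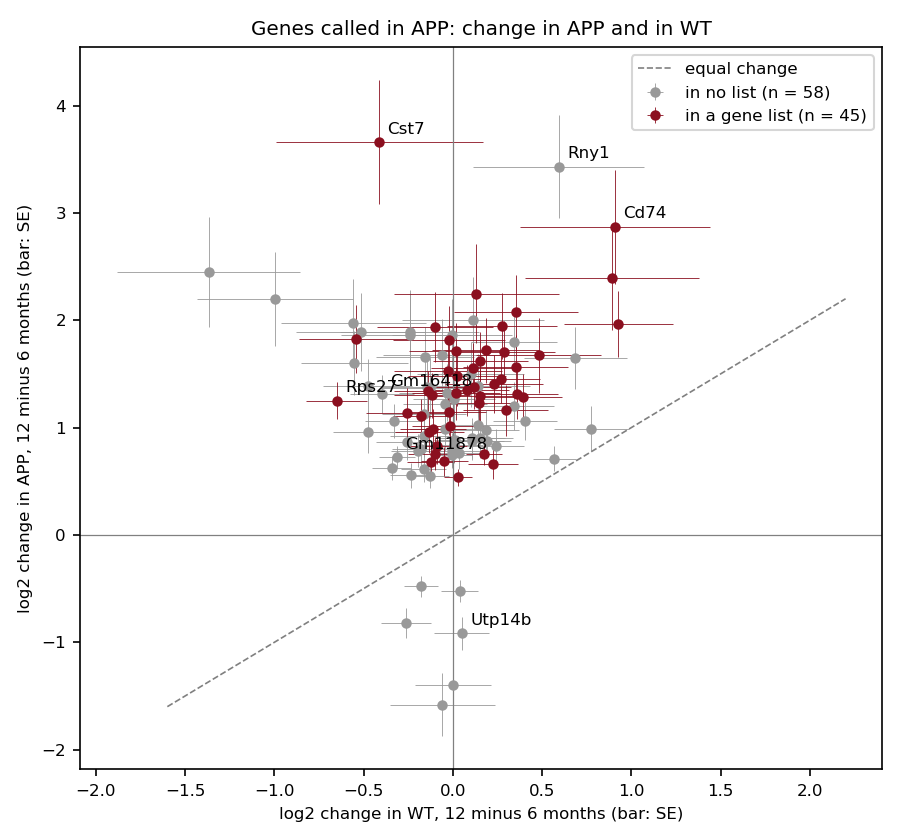
Log2 change from 6 to 12 months in APP (vertical) against WT (horizontal) for the 103 genes called in APP, with standard errors; the dashed line marks equal change. Higher genes lie above the line, with WT changes on both sides of 0 (48 of 97 above 0).

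The short-RNA libraries of the same mice give counts by position along B2, a family of mouse retrotransposed repeats whose RNA is cut at internal sites. The percent of B2 counts at positions above 20 was 89.2, 83.1 and 82.2 at 6 months and 81.2, 89.2 and 83.3 at 12 months. The means were 84.8% ± 3.81 and 84.6% ± 4.16 (SD, n = 3 each; two-sided exact permutation p = 0.9, where 0.1 is the smallest possible). With totals of 1436, 1095 and 1511 counts at 6 months and 1061, 435 and 432 at 12 months, the 95% Wilson interval of a single library was as wide as 79.5% to 86.6%, which covers counting error only. Of 34 positions tested, 0 were called with edgeR's quasi-likelihood test (0.0%), with 0 at an unadjusted p below 0.05, and 0 with DESeq2. No change in the share or at a position was therefore detectable at this depth, and the position test has little power. The totals themselves did not overlap (means 1347 and 643, exact permutation p = 0.1, the smallest possible), but they are not scaled to library depth.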

How the data were processed

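Members, gene lists and tests were chosen with earlier results of these data known. Per the labels' protocols, long RNA was fragmented, depleted of ribosomal RNA and made into libraries with a kit that does not keep strand. FastQC, cutadapt 1.18, BWA 0.7.17, HISAT2 2.1.0, bedtools 2.26.0 and StringTie 1.3.4d, and the builds mm10 and GRCm38, are named in the submitters' processing notes. Per the file headers, the deposited gene tables hold coverage signal, FPKM and TPM per library, with no read counts, so limma 3.58.1 (R 4.3.3) was used. TPM was summed per gene ID, genes averaging 1 TPM or more over the 6 APP libraries were kept, values were scaled by median of ratios, and log2(TPM + 1) was fitted with trend and robust moderation over 17 libraries in 6 groups. Each p-value sets a change against the spread between mice within groups, pooled over the 17 libraries and moderated across genes. Of 53975 gene IDs, 53934 are in GENCODE M21.

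Named genes were, per direction, up to 12 called genes with the largest change and separate groups, leaving out predicted genes; every called list member; the 3 most abundant members of each list; the 6 top genotype differences; and App, Hsf1, Ezh2, Apoe, Gfap, Cst7, Trem2, C4b and Xist. Ezh2 had a change of -0.20 (limma adjusted p = 0.867).

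The deposited B2 files hold whole-number counts for 119 positions, per the file headers; a B2 total is not the library's depth. Positions averaging 10 counts or more were tested with edgeR 4.0.16, with DESeq2 1.42.0 as an alternative, and shares with scipy 1.17.1. The fits were tested on simulated data. The B2 position test was revised after its first simulations, missed most planted changes of moderate size and, with larger ones, also called unchanged positions. Promoters are from RefSeq. Alternatives covered scaling, pseudocount, filter, the libraries fitted, weights, a replicate block, each library left out and transcript length. HT-22 cell files were not used here, and 1 called gene is not reported here.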

Additional observations from a re-analysis of the deposited data

Results flagged for a closer look

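The age change differed between APP and WT, by limma's test of the difference itself, in 4 genes. Rps27, a ribosomal protein gene, had a difference of 1.9 (adjusted p = 0.0187): it was at 6.17, 4.34 and 5.70 scaled TPM in APP at 6 months and at 14.4, 14.9 and 13.1 at 12 months, while WT went from 15.4, 15.3 and 10.0 to 7.33, 9.04 and 8.08. The pseudogene Gm11878 had 1.04 (adjusted p = 0.0187), the snoRNA Gm24616, which lies within Eif4a2, had 1.63 (0.0187), and the pseudogene Gm16418 had 1.71 (0.0315). In all 4 the APP libraries were higher at 12 than at 6 months, without passing for Gm24616 (adjusted p = 0.0649), while the WT means were lower at 12 months, with no call. Reads of pseudogenes and ribosomal protein genes can be shared with near-identical copies, so their values are uncertain. The snoRNA Gm24616 was read in the long fraction, and the part of the division by size in its level was not tested. With lengths centred by bin, 0 differences were called.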

How the results depend on the processing

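Against 103 genes in APP, 38 were called with TPM as deposited, 59 when scaled to protein-coding TPM and 44 with a pseudocount of 0.1. With only the groups compared 1 was called, not among the 103, with the APP libraries alone 0, and with array weights 252. Other settings gave 72 to 132, and leaving out 1 library gave 0 to 137. These counts also hold genes outside the 103: a pseudocount of 5 gave 132, of which 98 were among them. In WT, 1 gene was called with only the groups compared and 0 to 4 with 1 library left out. For the difference of age changes, 0 were called with TPM as deposited, 7 when genes averaging under 5 TPM were dropped, 8 with array weights, 7 with the replicate block, 0 with length bins centred and 0 to 50 with 1 library left out. Replicate numbers do not pair mice of different ages (correlations of 0.0735, -0.0204 and -0.061); the replicate block gave 78 genes in APP and 0 in WT. Leaving out 1 library moved the difference in B2 share between -2.59 and 1.91 percentage points, and without a filter on counts 2 B2 positions were called. Of the uncalled named genes, 135 of 2293 values over the settings changed sign. Depth limits the B2 result and the lowest genes.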

Other observations

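Among genes called higher that belong to no list, named after their values were seen, several are known from phagocytes. Lag3, an immune checkpoint receptor, was at 2.27, 6.68 and 1.78 scaled TPM at 6 months and at 14.0, 11.1 and 10.8 at 12 months (change 1.65, limma adjusted p = 0.0206). Plau, the urokinase protease, was at 0.975, 2.30 and 0.873 and then at 7.78, 5.78 and 5.44 (1.66, adjusted p = 0.0174). Mpeg1, a pore-forming protein of macrophages, was at 6.85, 23.0 and 6.70 and then at 33.4, 29.4 and 30.2 (1.5, adjusted p = 0.0411). The noncoding RNA AU020206 had one of the lowest adjusted p-values (1.80, 0.00858). Lgals1, a galectin, was at 5.41, 5.40 and 4.82 and then at 11.1, 9.82 and 10.4, but the 6 WT libraries, from 8.30 to 9.99, lay above the 6-month APP libraries. As for the other calls, none held without the 12-month replicate 1.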
